A study of Mus musculus with 12 samples.

Results

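The comparison described here set sorted mouse hepatocytes that had lost both Hippo kinase genes Mst1 and Mst2, together with 1 allele of the transcription factor gene Sox9, against hepatocytes that made green fluorescent protein (GFP) and kept all of these genes. It used 4 of the 12 libraries of the series, 2 in each group, and the 10681 of 16116 measured genes with a log2 value of at least 1 in at least 2 of the 12 libraries. The mice of the first group, called DKO Sox9-het (DKO for double knockout), were Sox9 fl/+ on an Mst1 fl/fl; Mst2 fl/fl background with a ROSA26-lsl-TdTomato reporter and were given AAV2/8-TBG-Cre. The mice of the second group, called floxed GFP, carried the same floxed Mst1 and Mst2 alleles and the reporter, had no floxed Sox9 allele on the label, and were given AAV2/8-TBG-GFP without Cre. AAV is an adeno-associated virus, TBG is a promoter active in hepatocytes, and a floxed (fl) allele is deleted where Cre recombinase acts. Virus was injected behind the eye at 3 weeks of age, and 4 weeks later cells were sorted for TdTomato in the DKO Sox9-het group or for GFP in the floxed GFP group, and against the biliary surface protein Epcam and the blood cell protein CD45. The groups therefore differed in Cre, in the sorted fluorophore and in 1 Sox9 allele as well as in Mst1 and Mst2, and these cannot be told apart. The rest of the series, named in the title for Sox9 in cells with active Yap, comprised hepatocytes that also lost the second Sox9 allele and an experiment with the active mutant YAP S127A.

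The Hippo pathway is a kinase cascade in which MST1 and MST2 (gene symbols Stk4 and Stk3) activate the LATS kinases, which phosphorylate the coactivators YAP and TAZ and keep them out of the nucleus. Without that brake, YAP and TAZ enter the nucleus and activate genes through the TEAD DNA-binding proteins. In liver the pathway restrains organ size, and active YAP is known to move hepatocytes toward a biliary or progenitor-like state in which Sox9 is switched on.

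Messenger RNA was measured with an amplicon panel that reads 1 short amplicon per gene, so levels are comparable between libraries and not between genes. The values are log2 CPM, reads of a gene scaled to a common library total, and differences below are on that log2 scale. The linear values summed to 947386 and 972612 in the DKO Sox9-het libraries, against 904975 and 884375 in the floxed GFP libraries, and their read totals are unknown. Libraries of a group correlated at 0.971 (DKO Sox9-het) and 0.982 (floxed GFP) across genes, which are not independent replicates. The labels do not tell whether different mice gave the 2 libraries of each group, so a p-value here reflects library-to-library spread, which may be technical. The table had been adjusted before deposit: the means of the GFP controls of both experiments were equal gene by gene (within 0.05 in 98.9% of kept genes), and each library's deviation from its group mean had been multiplied by a factor per gene (median 1.58), which bears on every p-value below. Of the markers that define hepatocytes, Alb stood at 15.12 and 15.37 in DKO Sox9-het and 15.35 and 15.10 in floxed GFP libraries. None of the 12 such markers kept was called, and their summed linear level was 75058 and 72728 CPM in DKO Sox9-het against 78769 and 73422 CPM in floxed GFP libraries.

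The promoters of 4 genes with large changes were picked because they hold letters bound by TEAD or TCF/LEF, so finding the letters there is no result. TEAD is known to act on YAP target genes and TCF/LEF on perivenous genes. Of the TEAD promoters shown, only that of Cyr61 is from the direct YAP and TAZ target list. Nid1 is in the matrix list and Sox4 in the biliary list. Ctgf and Nrg1 had no promoter window. The promoters shown come from RefSeq on build GRCm38.p6 and lie upstream of the RefSeq start on the gene's strand. They stop where GENCODE M21 annotates an exon. Capitals mark the TEAD letters GGAATG, or CATTCC on the other strand, in Nid1 (chr13:13437352-13437550, plus strand, 165 bases upstream), Sox4 (chr13:28953714-28953949, minus strand, 168 bases) and Cyr61, now named Ccn1 (chr3:145649986-145650235, minus strand, 103 bases). In Slc1a2 (chr2:102706188-102706355, plus strand, within the GENCODE gene span and upstream of the RefSeq start) they mark the TCF/LEF letters TCAAAG, 206 bases upstream, or CTTTGA on the other strand.
Nid1: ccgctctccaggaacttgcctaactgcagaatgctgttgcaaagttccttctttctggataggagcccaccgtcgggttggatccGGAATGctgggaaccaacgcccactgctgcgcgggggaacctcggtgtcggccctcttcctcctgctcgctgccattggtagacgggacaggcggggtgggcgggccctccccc
Sox4: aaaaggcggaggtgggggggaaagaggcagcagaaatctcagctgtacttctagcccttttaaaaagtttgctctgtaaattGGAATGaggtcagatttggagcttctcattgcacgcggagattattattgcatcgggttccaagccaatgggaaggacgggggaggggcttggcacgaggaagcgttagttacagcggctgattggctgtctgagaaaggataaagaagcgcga
Cyr61: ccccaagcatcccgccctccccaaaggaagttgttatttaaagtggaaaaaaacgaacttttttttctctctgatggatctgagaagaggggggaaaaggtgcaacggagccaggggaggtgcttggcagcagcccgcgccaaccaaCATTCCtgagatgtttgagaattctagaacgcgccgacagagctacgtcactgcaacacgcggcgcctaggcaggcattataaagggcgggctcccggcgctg
Slc1a2: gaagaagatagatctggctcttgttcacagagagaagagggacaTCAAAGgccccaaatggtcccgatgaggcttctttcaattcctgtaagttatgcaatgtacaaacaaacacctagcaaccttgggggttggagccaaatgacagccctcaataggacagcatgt
A second Slc1a2 match, CTTTGA 77 bases upstream, falls in the annotated exon and is not printed. The TEAD letters stood in 12.6% of all 32851 promoter windows of 250 bases, in 10.5% of windows of kept genes, in 57 of the 374 windows of genes called higher (15.2%) and in 8 of the 21 windows of the direct YAP and TAZ target list (38.1%). The TCF/LEF letters stood in 13.8% of all windows, in 10.7% of windows of kept genes, in 12 of the 87 windows of genes called lower (13.8%) and in 7 of the 20 windows of the perivenous list (35%). Crosswise, the TEAD letters stood in 6 of 87 windows called lower (6.9%) and in 3 of 20 windows of the perivenous list (15%). TCF/LEF letters stood in 36 of 374 windows called higher (9.63%) and in 1 of 21 windows of the YAP and TAZ list (4.76%). All of these are matches of letters and no measurement of binding.

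At a Benjamini-Hochberg adjusted p under 0.05 in limma, 454 of the 10681 genes were called, 4.25% of those tested. Of these, 369 were higher in DKO Sox9-het hepatocytes (3.45% of genes tested) and 85 were lower (0.796%), so 81.3% of the calls were higher. A rise of at least 2 on the log2 scale was found in 146 genes and one of at least 3 in 56, while 31 and 8 genes fell by as much. The smallest change called was 0.84. The median change of all kept genes was 0.08, and 58.9% of kept genes had a positive change. After quantile normalization, which moved that median to -0.05, 72.2% of calls were higher. The libraries of the groups did not overlap in any called gene, and they did not overlap in 45.3% of all kept genes. The count of calls depended on single libraries: it was 189 without DKO Sox9-het library 2, 221 without floxed GFP library 1 and 194 without floxed GFP library 2, against 490 without DKO Sox9-het library 1, and 140 of the 454 genes were called in each of these 4 fits. By chromosome the share of kept genes called ran from 1.69% on chromosome 12 to 5.92% on X.

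**Figure D1:**
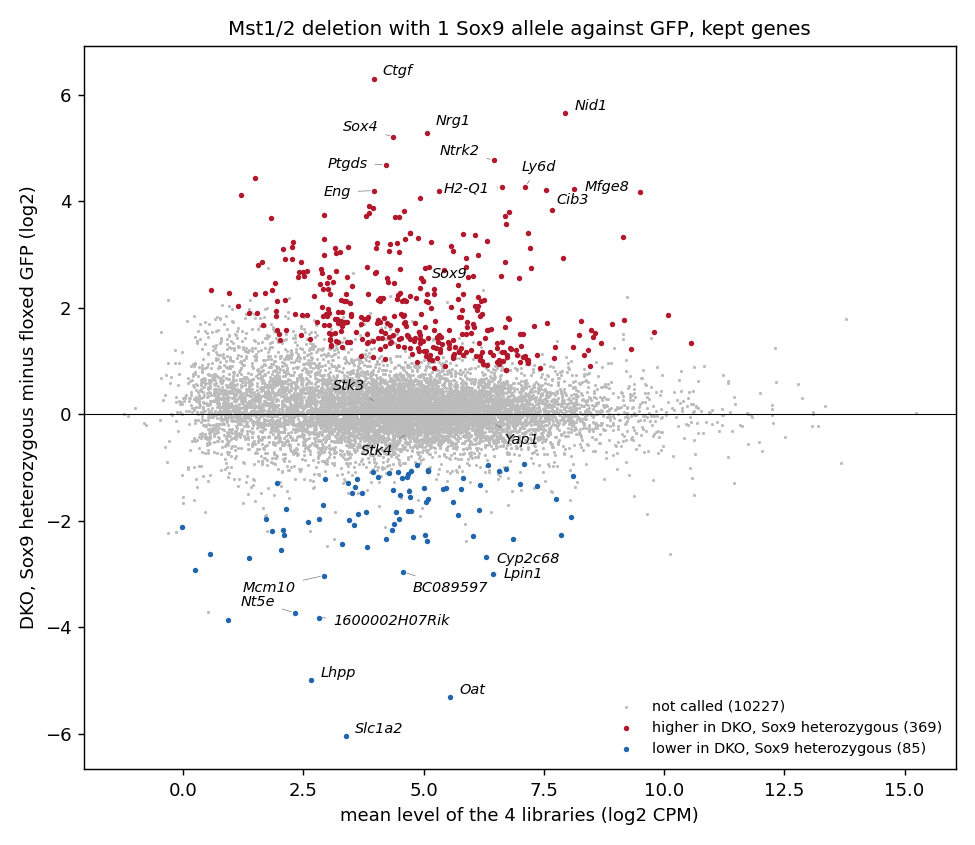
Difference of each of the 10681 kept genes, as the mean of the 2 DKO Sox9-het libraries minus that of the 2 floxed GFP libraries (log2), against the mean level over the 4 libraries (log2 CPM). Red points are the 369 genes called higher and blue points the 85 called lower in DKO Sox9-het hepatocytes (limma, adjusted p under 0.05). Ctgf and Nid1 lie at the top and Slc1a2 and Oat at the bottom, while Stk3, Stk4 and Yap1 lie near 0.

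The genes that the floxed alleles target were read first. Stk4 (Mst1, chr2:164070322-164155524, build GRCm38) had 4.25 and 4.74 log2 CPM in DKO Sox9-het libraries, against 4.89 and 4.82 in floxed GFP libraries. Stk3 (Mst2, chr15:34875496-35178921) had 4.23 and 4.03 in DKO Sox9-het libraries, against 4.04 and 3.78 in floxed GFP libraries. Neither was called, with differences of -0.36 ± 0.25 (SE) and 0.22 ± 0.27 (limma adjusted p = 0.547 and 0.779). The position of either amplicon relative to the floxed exons is unknown, so these values do not check the deletion. Sox9 (chr11:112782224-112787760), of which these cells keep 1 allele without lox sites, had 6.47 and 6.0 in DKO Sox9-het libraries, against 4.33 and 3.13 in floxed GFP libraries. Both DKO Sox9-het libraries stood above both floxed GFP libraries, a rise of 2.50 ± 0.38 (limma adjusted p = 0.000815). In the libraries that had also lost the second allele Sox9 read 1.41 and 1.29.

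Among the Hippo components the messages of the coactivators were close to the control. Yap1 read 6.44 and 6.30 in DKO Sox9-het libraries, against 6.46 and 6.60 in floxed GFP libraries (limma adjusted p = 0.833), and Wwtr1, which encodes TAZ, read 4.76 and 5.05 in DKO Sox9-het libraries, against 4.70 and 4.43 in floxed GFP libraries (adjusted p = 0.604). Of their DNA-binding partners, Tead1 read 4.27 and 4.95 in DKO Sox9-het libraries, against 3.42 and 3.69 in floxed GFP libraries, without a call (adjusted p = 0.17), and the changes of Tead2, Tead3 and Tead4 were -0.50, -0.26 and 0.42, none called. Of 26 kept pathway members 3 rose and none fell, with a list median of 0.04, and after quantile normalization 3 rose and 1 fell, with a median of -0.07. Map4k4, a kinase that acts beside MST1 and MST2 on LATS, had 5.48 and 5.53 in DKO Sox9-het libraries, against 3.68 and 3.63 in floxed GFP libraries. Wwc1 (KIBRA), an upstream activator of LATS and itself a YAP target, had 8.01 and 8.23 in DKO Sox9-het libraries, against 6.52 and 6.42 in floxed GFP libraries. Both rose with no overlap, by 1.85 and 1.65 (limma adjusted p = 0.00525 and 0.00408). The third, Amot, which encodes the YAP-binding protein angiomotin, rose by 1.40 (adjusted p = 0.0114), with adjusted p up to 0.201 when DKO Sox9-het library 2 or floxed GFP library 2 was left out.

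Of 26 kept genes of the direct YAP and TAZ target list, 10 rose and 1 fell, and 24 had a positive change, with a list median of 1.06 beside 0.08 for all kept genes. Ctgf (Ccn2, chr10:24595442-24598683), a secreted matricellular protein and a standard readout of YAP, had 7.22 and 7.02 in DKO Sox9-het libraries, against 0.90 and 0.73 in floxed GFP libraries. This was the largest rise among the genes named, 6.30 ± 0.35 on the log2 scale or 79.1-fold (limma adjusted p = 9.29e-08), from a control level below the threshold of 1 used to keep genes. Ajuba, a LIM-domain protein that binds LATS, had 7.06 and 7.23 in DKO Sox9-het libraries, against 4.09 and 3.90 in floxed GFP libraries, and rose by 3.16 (adjusted p = 8.01e-06). Cyr61, a relative of Ctgf, rose by 2.75 and Crim1, a transmembrane regulator of BMP signals, by 2.15 (adjusted p = 0.0011 and 0.000111). The rise of these 4 genes held without each library in turn. The count of higher targets did not: it was 10 without DKO Sox9-het library 1, 5 without DKO Sox9-het library 2, 8 without floxed GFP library 1 and 5 without floxed GFP library 2. The classical target Ankrd1 stood at 0.04 and -0.09 in both groups alike. These values lie below the threshold of 1, so a lack of change cannot be told from a lack of detection. Nt5e, which encodes the ecto-enzyme CD73, went the other way, with -0.32 and 1.24 in DKO Sox9-het libraries, against 4.76 and 3.62 in floxed GFP libraries. Its fall of 3.73 (adjusted p = 0.00499) was not called without floxed GFP library 1 (adjusted p = 0.0641).

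The other large rises covered matrix, growth factor, neuronal and membrane proteins, and each of the 15 largest with a mean of at least 4 in the higher group was called whichever library was left out. Nid1 (chr13:13437551-13512269), which encodes the basement membrane linker nidogen, had 10.49 and 11.05 in DKO Sox9-het libraries, against 4.76 and 5.48 in floxed GFP libraries, a rise of 5.65 ± 0.42 (limma adjusted p = 1.58e-06). Nrg1 (chr8:31814551-32884029), the ErbB3 and ErbB4 ligand neuregulin, had 7.14 and 8.28 in DKO Sox9-het libraries, against 2.56 and 2.28 in floxed GFP libraries, a rise of 5.29 ± 0.35. It was the only one of 12 kept EGF family ligands, ErbB receptors and their regulators to be called, while the receptor genes Egfr and Erbb3 changed by 0.41 and 0.49 (adjusted p = 0.599 and 0.462). Ntrk2 (chr13:58806569-59133970), the receptor for the neurotrophin BDNF, had 8.94 and 8.75 in DKO Sox9-het libraries, against 3.73 and 4.42 in floxed GFP libraries, a rise of 4.77 ± 0.51. Ptgds, a prostaglandin D synthase, rose by 4.69, and Mfge8, a secreted protein that bridges cells and apoptotic debris, by 4.23. The groups did not overlap in either gene, which was a condition for being named among these 15.

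**Figure D2:**
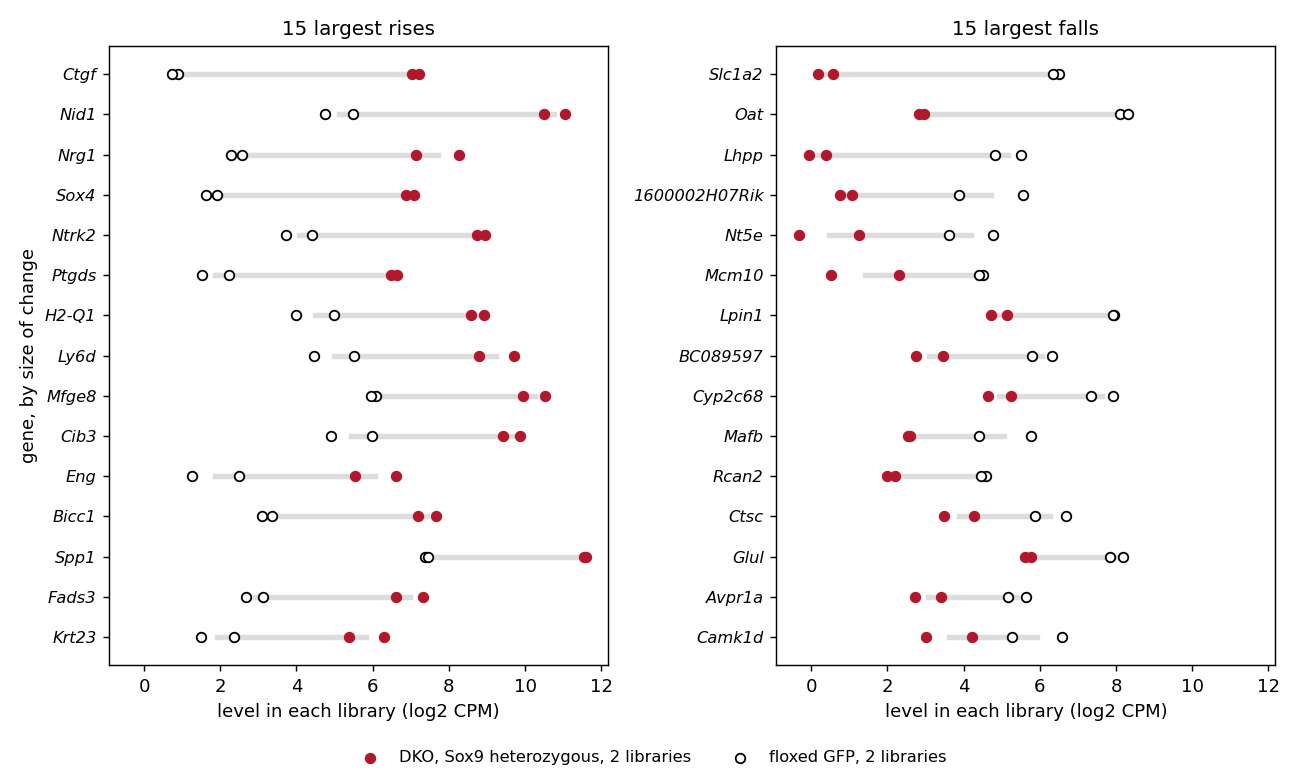
Level of the 15 largest rises (left) and the 15 largest falls (right) in each library (log2 CPM), in order of the size of change, among called genes with a mean of at least 4 in the higher group. Red points are the 2 DKO Sox9-het libraries, open points the 2 floxed GFP libraries, and the grey bar joins the group means. The genes were chosen among those without overlap of the groups, and the distance runs up to 6.30 for Ctgf and 6.05 for Slc1a2. Unlike the rises, not all of the falls shown stayed called without each library in turn.

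Biliary and progenitor genes were higher in DKO Sox9-het hepatocytes: 10 of 20 kept members rose, none fell and 19 had a positive change, with a median of 1.10. Without 1 library, 7 to 10 members were called. Sox4 (chr13:28948919-28953713), a relative of Sox9 active in biliary development, had 7.08 and 6.88 in DKO Sox9-het libraries, against 1.62 and 1.92 in floxed GFP libraries, a rise of 5.21 ± 0.37 (limma adjusted p = 9.65e-07). Spp1 (chr5:104435118-104441050), the secreted phosphoprotein osteopontin, had 11.59 and 11.56 in DKO Sox9-het libraries, against 7.37 and 7.45 in floxed GFP libraries, a rise of 4.17 ± 0.38 (adjusted p = 9.23e-06). Bicc1, an RNA-binding protein whose loss causes cystic kidneys in mice, rose by 4.19 (adjusted p = 8.78e-06), and the keratin gene Krt23 by 3.91 (adjusted p = 7.37e-05). Of other genes typical of mature bile duct cells, Krt7, Cftr and Krt19 did not pass the filter and were not tested. Epcam passed it and was not called. Krt7 and Cftr were below log2 0 in all 4 libraries, Krt19 read 0.01 and 0.08 in DKO Sox9-het against 0.15 and -0.26 in floxed GFP libraries, and Epcam, the protein used to remove biliary cells, read 0.83 and 1.05 in DKO Sox9-het libraries, against 0.83 and 0.83 in floxed GFP libraries.

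Of 13 kept fetal and tumour-associated liver genes 4 rose and none fell, also in each of the 4 fits without 1 library, and the list median was 0.23. Gpc3, the oncofetal proteoglycan glypican 3, had 3.42 and 4.02 in DKO Sox9-het libraries, against -0.80 and -0.65 in floxed GFP libraries. Spink1, a secreted trypsin inhibitor, had 5.94 and 5.82 in DKO Sox9-het libraries, against 2.02 and 1.99 in floxed GFP libraries, and the imprinted transcript H19 had 4.49 and 4.91 in DKO Sox9-het libraries, against 2.89 and 1.73 in floxed GFP libraries. Ly6d, a GPI-anchored surface protein, had 8.80 and 9.71 in DKO Sox9-het libraries, against 5.51 and 4.45 in floxed GFP libraries. These 4 rose by 4.44, 3.87, 2.40 and 4.27 with groups that did not overlap (limma adjusted p = 2.62e-05, 0.000114, 0.00248 and 3.3e-05). Afp, the fetal serum protein, read 2.21 and 3.24 in DKO Sox9-het libraries, against 2.77 and 2.23 in floxed GFP libraries, and the ranges overlapped.

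Genes of basement membrane, cytoskeleton and cell cycle rose in part. List counts throughout are to be read beside the 3.45% of all kept genes called higher and the 0.796% called lower. A count near these shares is no result about its list. Of 23 kept matrix genes 5 rose and none fell (3 to 5 without 1 library, 3 of them without floxed GFP library 1). Beside Nid1 they were Sparc, a collagen-binding glycoprotein, by 3.07, and the laminin subunit genes Lamb2, Lama5 and Lamc1 by 2.45, 1.82 and 1.35 (limma adjusted p = 0.00408, 0.00142, 0.0333 and 0.0101). The call of Lama5 was lost in 3 of the fits without 1 library (DKO Sox9-het library 2 and each floxed GFP library, adjusted p up to 0.415) and that of Lamc1 without floxed GFP library 1 (0.132). Of 27 actin and integrin genes 5 rose, led by the membrane-binding annexin Anxa2 at 3.12 and the actin cross-linker Flna at 2.25 (adjusted p = 0.000216 and 0.00157). That count was 2 without DKO Sox9-het library 2 and 2 without floxed GFP library 2. Of 18 chemokine and cytokine genes 5 rose, among them Spp1 and the macrophage growth factor Csf1 at 1.37 (adjusted p = 0.00271, and 0.0587 without floxed GFP library 1). That count was 2 without DKO Sox9-het library 2 and 2 without either floxed GFP library.

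The cyclin gene Ccnd1, which drives entry into the cell cycle, had 7.58 and 8.32 in DKO Sox9-het libraries, against 4.81 and 4.59 in floxed GFP libraries, and rose by 3.25 ± 0.37 (limma adjusted p = 6.64e-05). It was the 1 called gene of 25 kept replication and G1/S genes, whose median change was 0.17. Of 27 G2/M and mitosis genes 7 rose and 26 had a positive change, with a median of 1.09, and Cdc20, an activator of the anaphase-promoting complex, led with 5.02 and 6.01 in DKO Sox9-het libraries, against 3.57 and 2.47 in floxed GFP libraries. DKO Sox9-het library 2 stood highest in most of these genes: the list median was 1.44 for it and 0.85 for DKO Sox9-het library 1 over the floxed GFP mean. No mitosis gene was called without DKO Sox9-het library 2 or without floxed GFP library 2, 1 was called without floxed GFP library 1, and 9 without DKO Sox9-het library 1. The proliferation marker Mki67 read 4.57 and 3.28 in DKO Sox9-het libraries, against 3.04 and 3.71 in floxed GFP libraries, and the ranges overlapped.

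**Figure D3:**
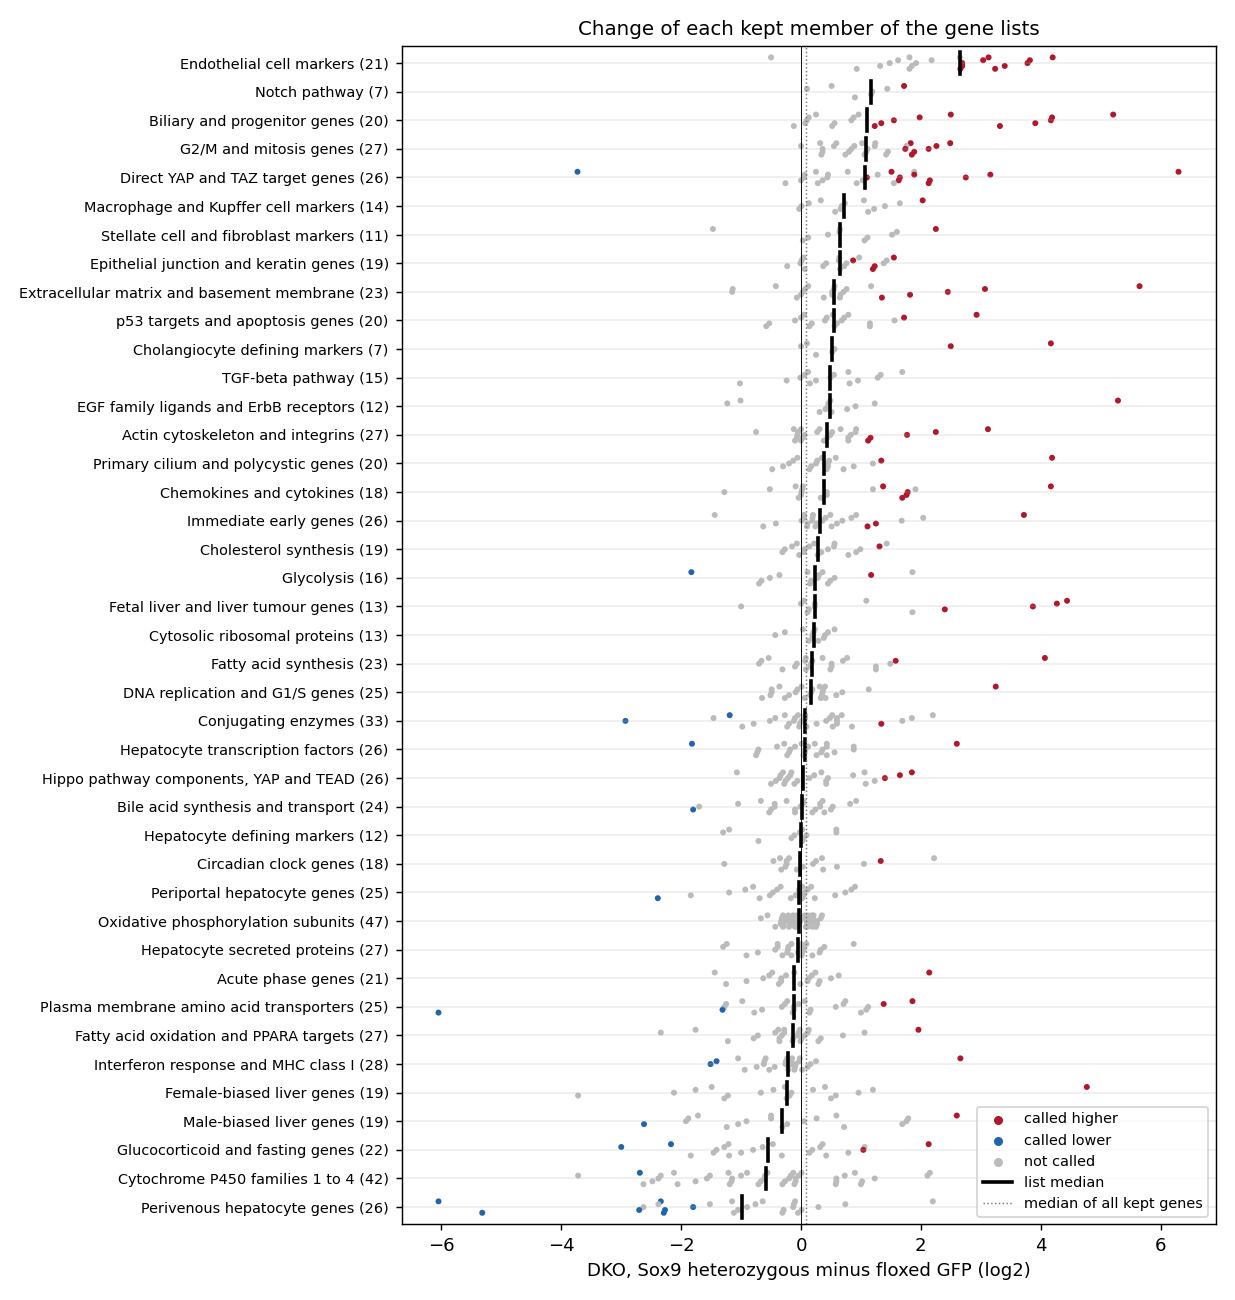
Change of every kept member of the gene lists with at least 5 kept genes, as DKO Sox9-het minus floxed GFP (log2), with the number of kept members in parentheses. Red and blue points are members called higher and lower (limma, adjusted p under 0.05), black bars are list medians and the dotted line is the median of all kept genes, 0.08. Endothelial markers have the highest median, 2.65, and perivenous hepatocyte genes the lowest, -0.98.

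Hepatocytes around the central vein differ from those around the portal vein, and Wnt signals acting through TCF/LEF factors maintain the perivenous program. Of 26 kept perivenous genes 7 fell, none rose and 4 had a positive change, with a median of -0.98. Of 25 kept periportal genes 1 fell and none rose, with a median of -0.03. The perivenous count was 6 without each library in turn, and the median ran from -1.39 without DKO Sox9-het library 2 to -0.57 without DKO Sox9-het library 1. Slc1a2 (chr2:102658659-102790784), a glutamate transporter of the perivenous cells, had 0.17 and 0.56 in DKO Sox9-het libraries, against 6.49 and 6.35 in floxed GFP libraries. It was the largest fall, 6.05 ± 0.48 (limma adjusted p = 2.51e-06). Oat (chr7:132557478-132576398), ornithine aminotransferase, had 2.84 and 2.95 in DKO Sox9-het libraries, against 8.11 and 8.32 in floxed GFP libraries, and fell by 5.32 ± 0.50 (adjusted p = 1.25e-05). Glul (chr1:153899944-153909723), which encodes glutamine synthetase, had 5.60 and 5.76 in DKO Sox9-het libraries, against 8.19 and 7.85 in floxed GFP libraries, and fell by 2.34 ± 0.32 (adjusted p = 0.000355). These 3 genes of perivenous nitrogen handling were called without each library in turn.

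The other called perivenous genes were Lgr5, the R-spondin receptor, Lect2, a secreted hepatokine, Gulo, an enzyme of ascorbate synthesis, and Cyp7a1, which catalyses the first step of bile acid synthesis. Gulo had 6.51 and 6.96 in DKO Sox9-het libraries, against 9.17 and 8.82 in floxed GFP libraries, and fell by 2.27 (limma adjusted p = 6.11e-05), also without each library in turn. Lgr5 had 0.32 and -0.27 in DKO Sox9-het libraries, against 2.23 and 3.23 in floxed GFP libraries. Cyp7a1 had 5.46 and 5.04 in DKO Sox9-het libraries, against 6.8 and 7.31 in floxed GFP libraries. Lgr5 fell by 2.70, Lect2 fell by 2.29 and Cyp7a1 fell by 1.80 (limma adjusted p = 0.00874, 0.012 and 0.00608). Each of the calls of Lgr5, Lect2 and Cyp7a1 was lost in 2 of the 4 fits without 1 library, with adjusted p up to 0.141, 0.098 and 0.0869: those of Lgr5 and Cyp7a1 without DKO Sox9-het library 2 or floxed GFP library 2, and that of Lect2 without DKO Sox9-het library 1 or floxed GFP library 1. Among widely used perivenous markers, libraries of a group lay apart. Cyp2e1 read 7.76 and 9.84 in DKO Sox9-het libraries, against 12.33 and 10.53 in floxed GFP libraries, and Cyp1a2 read 8.24 and 9.15 in DKO Sox9-het libraries, against 10.42 and 9.29 in floxed GFP libraries. The groups did not overlap in either gene, and neither was called (adjusted p = 0.0624 and 0.275). Axin2, a general Wnt target, read 2.33 and 3.52 in DKO Sox9-het libraries, against 3.59 and 2.88 in floxed GFP libraries, and the ranges overlapped. The 1 periportal gene called, Ctsc, encodes a lysosomal protease and read 4.28 and 3.49 in DKO Sox9-het libraries, against 5.87 and 6.68 in floxed GFP libraries, a fall of 2.39 (adjusted p = 0.000182).

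Counts in the metabolic lists are set against the 4.25% of all kept genes called, and those near that share are no result about the list. None of 27 secreted protein genes and none of 47 oxidative phosphorylation subunit genes was called, with medians of -0.05 and -0.03. Of 42 cytochrome P450 genes of families 1 to 4, 1 fell and none rose, with a median of -0.58: Cyp2c68, a drug-metabolizing member, had 4.63 and 5.25 in DKO Sox9-het libraries, against 7.34 and 7.93 in floxed GFP libraries (limma adjusted p = 0.00247). Its relatives in the Cyp2c family are near-identical in places, so reads of its amplicon may be shared among them. Cyp7a1 was the 1 called gene of 24 bile acid genes, whose median was 0.01, and the exporter gene Abcb11 changed by 0.39 (adjusted p = 0.586). Among fasting and glucocorticoid genes Lpin1, a phosphatidate phosphatase and nuclear coactivator, had 4.73 and 5.14 in DKO Sox9-het libraries, against 7.95 and 7.93 in floxed GFP libraries, and fell by 3.00 (adjusted p = 0.000212). Fads3, a fatty acid desaturase family member, had 6.62 and 7.33 in DKO Sox9-het libraries, against 3.12 and 2.67 in floxed GFP libraries, and rose by 4.07 (adjusted p = 9.63e-06). The hepatocyte transcription factor gene Hnf4a read 9.12 and 9.34 in DKO Sox9-het libraries, against 9.85 and 10.02 in floxed GFP libraries, and was not called.

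Of 21 kept markers of endothelial cells 10 rose, beside 3.45% of all kept genes called higher, none fell and 20 had a positive change, with a median of 2.65, and the summed linear level of the 22 endothelial markers in the table was 499 and 636 CPM in DKO Sox9-het libraries, against 72.5 and 77.5 CPM in floxed GFP libraries. No marker of this list was below log2 0 in all 4 libraries. Eng (endoglin, a TGF-beta co-receptor, chr2:32646595-32682669) had 5.53 and 6.60 in DKO Sox9-het libraries, against 2.48 and 1.26 in floxed GFP libraries, and the scavenger receptor Stab2 of liver sinusoids had 6.04 and 6.97 in DKO Sox9-het libraries, against 2.74 and 2.62 in floxed GFP libraries. They rose by 4.20 and 3.82 (limma adjusted p = 0.000237 and 0.000325), and 8 to 10 markers were called without 1 library. The pan-endothelial Pecam1 read 4.07 and 1.35 in DKO Sox9-het libraries, against 0.06 and 2.41 in floxed GFP libraries, and the ranges overlapped. Sorting was against Epcam and CD45 and not against an endothelial protein, and in bulk libraries more cells of a type and more RNA per cell cannot be told apart. Sparc and Nid1 of the matrix list are also made by endothelial cells, and the part of endothelial RNA in their rise was not tested.

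Of 14 kept macrophage and Kupffer cell markers 1 rose, Mpeg1, with 7.02 and 7.13 in DKO Sox9-het libraries, against 4.99 and 5.11 in floxed GFP libraries (limma adjusted p = 0.000449). The summed level of the 19 markers of this list was 190 and 316 CPM in DKO Sox9-het libraries, against 74.7 and 94.1 CPM in floxed GFP libraries. This sum was highest in DKO Sox9-het library 2, and it includes Mpeg1, the largest value of the list in each library. Over the floxed GFP mean the list median was 0.11 for DKO Sox9-het library 1 and 1.44 for DKO Sox9-het library 2. Fcgr1 was below log2 0 in all 4 libraries. Of 11 kept stellate cell and fibroblast markers only Dcn was called, at 2.25 (adjusted p = 0.0185, and up to 0.135 without DKO Sox9-het library 1 or either floxed GFP library), with summed levels of 104 and 82.1 CPM in DKO Sox9-het against 51 and 58.9 CPM in floxed GFP libraries, and Pdgfra, Acta2, Hand2 and Ngfr were below log2 0 in all 4. Ptprc, which encodes CD45, was at 0.70 and 0.47 in both groups alike. That is below the threshold of 1, where a lack of change cannot be told from a lack of detection. No marker of B cells or neutrophils was kept. The part of these cells in the rises of chemokine and matrix genes was not tested.

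**Figure D4:**
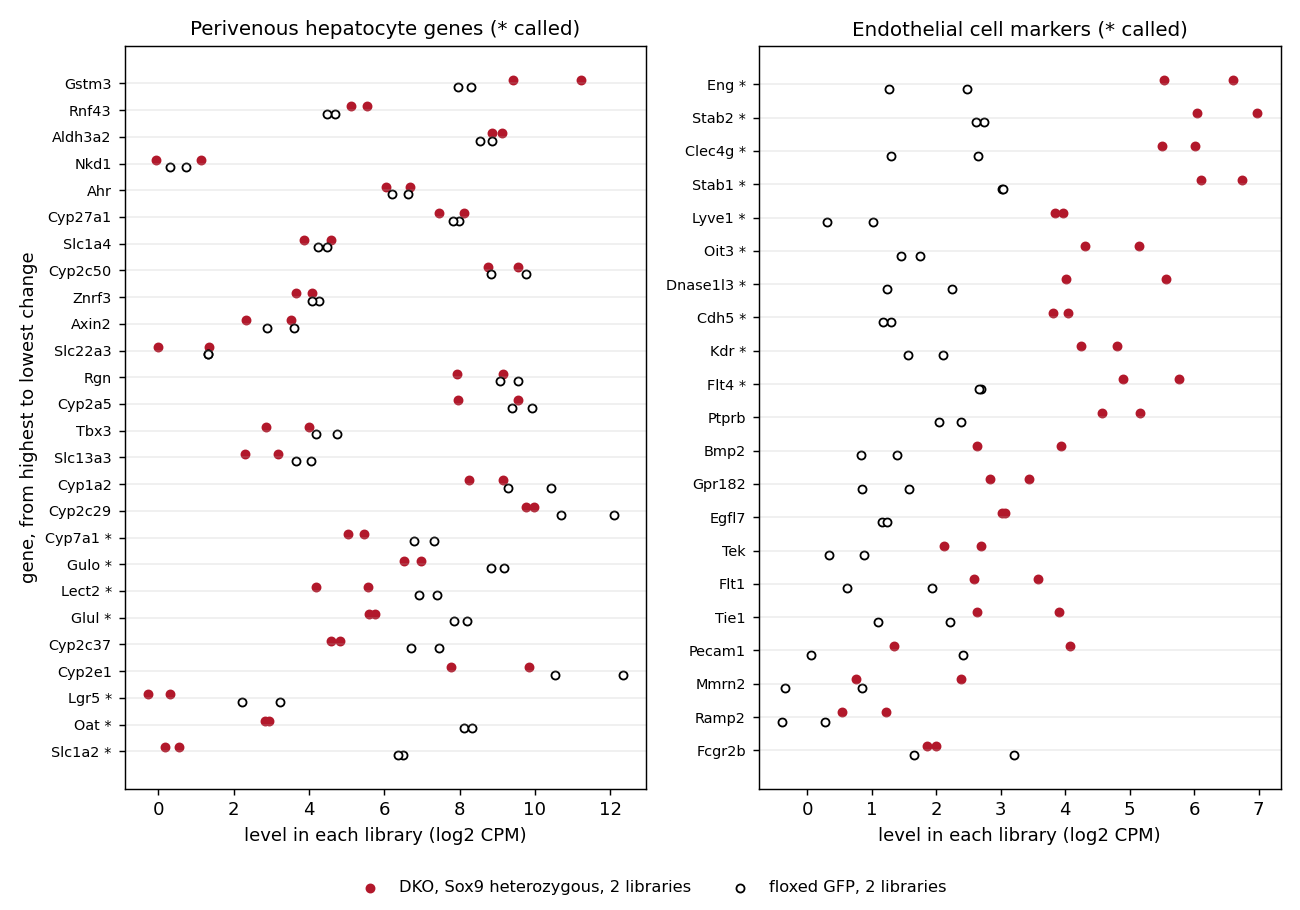
Level of every kept perivenous hepatocyte gene (left) and endothelial marker (right) in each library (log2 CPM), from the highest to the lowest change. Red points are the 2 DKO Sox9-het libraries, open points the 2 floxed GFP libraries, and a star marks a called gene (limma, adjusted p under 0.05). Of 26 perivenous genes 7 fell, and of 21 endothelial markers 10 rose.

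The effect of Mst1/2 deletion was then set against that of YAP S127A, each over the GFP control of its own experiment and both with 1 Sox9 allele. The means of these GFP controls were equal in the deposited table (within 0.05 in 98.9% of kept genes). The difference of the effects is therefore close to the DKO Sox9-het mean minus the YAP S127A mean. The YAP S127A hepatocytes were Sox9 fl/+, were given AAV2/8-TBG-Cre with AAV2/8-TBG-YAP S127A-P2A-GFP, and were sorted for GFP 3 weeks after injection. Since sort, time and virus differed between the experiments, these cannot be told apart from the way YAP was activated. In the 12-library fit 21 of 10681 genes (0.197%) differed at an adjusted p under 0.05, 13 with a higher and 8 with a lower effect of Mst1/2 deletion, and 815 had an unadjusted p under 0.05. The count was 39 without DKO Sox9-het library 1, 1 without DKO Sox9-het library 2, 4 without floxed GFP library 1 and 5 without floxed GFP library 2.

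The neurotrophin receptor gene Ntrk2 showed the widest gap: it had 8.94 and 8.75 in DKO Sox9-het libraries, against 3.73 and 4.42 in floxed GFP libraries, and 2.90 and 1.95 in YAP S127A libraries, against 4.94 and 3.34 in wild type GFP libraries. The effects differed by 6.49 (limma adjusted p = 0.0017). Ntrk2 is also in the list of female-biased liver genes, whose 19 kept members had a median change of -0.24 under Mst1/2 deletion. Whether the sex of the mice differed between groups was not tested. Lpl, which encodes lipoprotein lipase, had 9.32 and 9.89 in DKO Sox9-het libraries, against 6.36 and 5.16 in floxed GFP libraries, and 5.97 and 4.71 in YAP S127A libraries, against 4.97 and 6.73 in wild type GFP libraries (difference 4.35, adjusted p = 0.0275). Smpd3, a neutral sphingomyelinase, and Klf6, an immediate early transcription factor, differed by 3.01 and 2.63 in the same direction (adjusted p = 0.0275 for each). In each of these 4 genes the DKO Sox9-het libraries stood above those of the other 3 groups. Of the genes named for this difference, only Ntrk2 was called without each of the 4 DKO Sox9-het and floxed GFP libraries in turn (6.15 to 6.83, adjusted p up to 0.00806).

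The effects of the experiments also differed for genes that fell under Mst1/2 deletion, of which 4 are described here. Besides these, 1600002H07Rik and Tlr12 changed by -3.82 and -2.19 under Mst1/2 deletion. Their effects differed by -4.13 and -4.49 (limma adjusted p = 0.0329 and 0.0392). Slc1a2 read 3.66 and 5.26 in YAP S127A libraries, against 5.98 and 6.88 in wild type GFP libraries, and its effects differed by -4.08 (limma adjusted p = 0.0275). Oat read 6.56 and 7.67 in YAP S127A libraries, against 7.60 and 8.86 in wild type GFP libraries, and its effects differed by -4.21 (adjusted p = 0.0275). Lhpp, a histidine phosphatase gene next to Oat, read 3.68 and 4.22 in YAP S127A libraries, against 4.95 and 5.37 in wild type GFP libraries, and its effects differed by -3.79 (adjusted p = 0.0409). Lpin1 read 7.67 and 9.17 in YAP S127A libraries, against 7.48 and 8.35 in wild type GFP libraries, with overlapping ranges, and its effects differed by -3.51 (adjusted p = 0.0274). For Ctgf, Nid1, Sox4 and Spp1 the difference between the experiments was not called (adjusted p = 0.253, 0.353, 0.681 and 0.84), which does not show that the effects were equal.

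**Figure D5:**
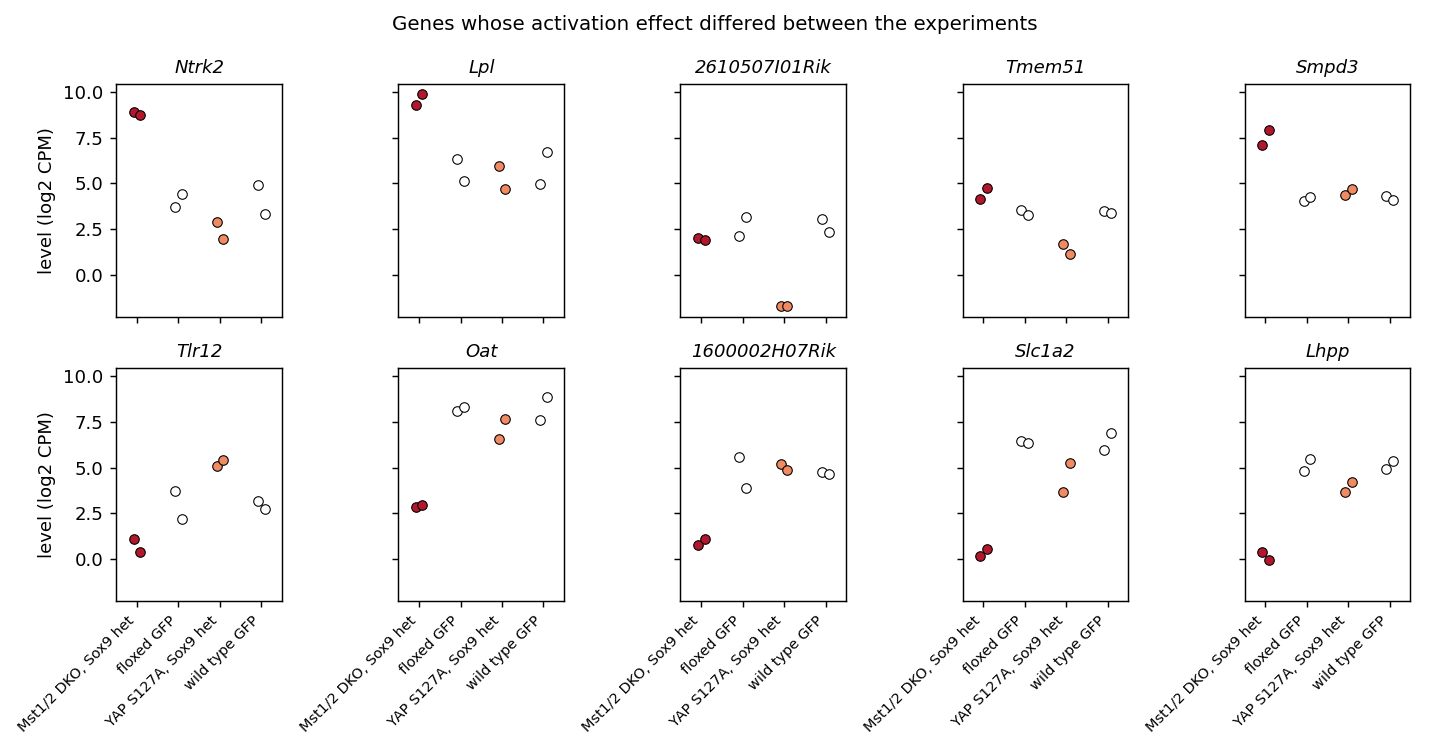
Level of 10 genes whose activation effect differed between the experiments (limma, adjusted p under 0.05) in each library of 4 groups (log2 CPM), 2 libraries per group. In each panel the groups are DKO Sox9-het, floxed GFP, YAP S127A with 1 Sox9 allele, and wild type GFP. Of these 4 groups the DKO Sox9-het libraries are highest in Ntrk2, Lpl and Smpd3 and lowest in Oat, Slc1a2 and Lhpp. In YAP S127A over wild type GFP libraries Slc1a2, Lhpp and Oat changed by -1.97, -1.21 and -1.11, with overlapping ranges for Oat.

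Few genes were called for the loss of the second Sox9 allele on top of Mst1/2 deletion. Between the Sox9-null and the Sox9-het DKO hepatocytes 5 of 10681 genes (0.0468%) were called, and 629 had an unadjusted p under 0.05. The count was 20 without DKO Sox9-het library 1 and 3 without DKO Sox9-het library 2. Sox9 itself fell by 4.89 (limma adjusted p = 6.31e-06). Ctgf read 7.40 and 7.84 in DKO Sox9-null libraries, against 7.22 and 7.02 in DKO Sox9-het libraries, and Spp1 read 11.85 and 11.80 in DKO Sox9-null libraries, against 11.59 and 11.56 in DKO Sox9-het libraries, neither called. Slc1a2 read 0.46 and 0.20 in DKO Sox9-null libraries, against 0.17 and 0.56 in DKO Sox9-het libraries, with overlapping ranges. All of these Slc1a2 values lie below the threshold of 1, where a lack of change cannot be told from a lack of detection.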

How the data were processed

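Per the labels' protocols, hepatocyte RNA was amplified with an Ion AmpliSeq panel for the mouse transcriptome. The authors deposited log2 CPM per gene symbol, a scale that the labels also call RPM. How reads were aligned, counted and later adjusted is not stated in the labels or the file, read depth is unknown, and whole reads could not be recovered. In the deposited table the difference between the DKO Sox9-het mean and the mean of all 4 GFP libraries lay on a grid of 0.0025 in 100% of genes, and that from the floxed GFP mean in 39.3%. The mean of the first and that of the second libraries of the Mst experiment were equal too (within 0.05 in 99.9% of kept genes). The deviations before rescaling had a median SD within groups of 0.134, against 0.222 as deposited.

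Groups came from the labels, and all 12 mapped columns were used, with 0 columns left over. The filter kept any gene reaching log2 1 in 2 or more of 12 libraries. Of these, 9634 reached log2 1 in all 4 libraries compared, 116 reached it in both DKO Sox9-het and neither floxed GFP library, 29 the reverse, and 193 in none of the 4. The genes nearest the threshold had a second-highest value of 1.0006 (5930430L01Rik) and 1.0008 (Cdca7l) inside it and of 0.9992 (Brdt) and 0.9988 (Lrrc27) outside it. Group means over the 6 groups of 12 libraries were fitted to the deposited log2 values in limma (version 3.58.1, R version 4.3.3), letting the prior variance follow the mean level (6 residual and 9.42 prior degrees of freedom), after the code was tested on simulated data. Tests were two-sided with Benjamini-Hochberg adjustment over all kept genes. Fold changes are 2 to the power of the log2 difference.

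Genes named were Sox9, Stk4, Stk3, Yap1, Wwtr1 and Tead1 to Tead4, the 15 largest rises and 15 largest falls among called genes without overlap and whose higher group averaged 4 or more, up to 5 called members of each list (or the one with the smallest p), and up to 5 called genes in each direction for the differences between experiments and between Sox9 genotypes. Other list members, Gulo among them, and the neighbours of Oat and Lhpp were named after their values were seen. The comparison, the gene lists and the tests were chosen with earlier results of these data known. Lists are described by counts and medians, with no test of the list. Coordinates of genes are from GENCODE M21 on GRCm38. Promoters from RefSeq were matched by symbol or synonym for 280 of the 369 genes called higher and 65 of the 85 called lower. Alternatives covered filtering, scaling, a pseudocount, the libraries fitted, the prior and a replicate block.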

Additional observations from a re-analysis of the deposited data

Results flagged for a closer look

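For 12 genes named in the comparisons the effect of Mst1/2 deletion over floxed GFP differed from that of YAP S127A over wild type GFP by the test of the difference itself (limma, adjusted p under 0.05). The difference was positive for Ntrk2 (6.49), Lpl (4.35), 2610507I01Rik (3.72), Tmem51 (3.08), Smpd3 (3.01) and Klf6 (2.63). It was negative for Tlr12 (-4.49), Oat (-4.21), 1600002H07Rik (-4.13), Slc1a2 (-4.08), Lhpp (-3.79) and Lpin1 (-3.51). In 2610507I01Rik, a processed transcript on chromosome 11, the YAP S127A libraries carried the difference, at -1.74 and -1.74 against 3.07 and 2.31 in wild type GFP libraries, while it read 1.98 and 1.89 in DKO Sox9-het against 2.12 and 3.18 in floxed GFP libraries. In Tlr12, a toll-like receptor gene, the experiments moved in opposite directions, at 1.09 and 0.40 in DKO Sox9-het against 3.70 and 2.18 in floxed GFP libraries, and 5.09 and 5.40 in YAP S127A against 3.19 and 2.71 in wild type GFP libraries. Its change under Mst1/2 deletion ran from -2.95 to -1.43 without 1 library, with DKO Sox9-het library 2 below the threshold of 1. The rise of Tlr12 under YAP S127A was not tested by itself.

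All 5 genes called between Sox9-null and Sox9-het DKO hepatocytes are listed because the 2 genotypes differed by that test. Sox9 differed by -4.89, Tmub2 by -4.38, Sec22a by -2.33, Vamp2 by 3.51 and 2610507I01Rik by 3.06 (limma, adjusted p under 0.05). Sox9 and Tmub2 were called without each DKO Sox9-het or floxed GFP library in turn, while Vamp2 and 2610507I01Rik were not called without DKO Sox9-het library 2 (adjusted p = 0.143 for each), nor Sec22a without DKO Sox9-het library 1 (adjusted p = 0.05). Tmub2 read 0.62 and 0.40 in DKO Sox9-null libraries, against 4.90 and 4.90 in DKO Sox9-het libraries, and 4.89 and 5.11 in floxed GFP libraries. Sox9, Tmub2, Vamp2 and 2610507I01Rik all lie on chromosome 11, with Tmub2 at chr11:102284931-102289237 and Sox9 at chr11:112782224-112787760, and Sec22a lies on chromosome 16.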

How the results depend on the processing

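The 2 libraries per group, unknown read depth and the adjustment of the table before deposit limit these results, and p-values read the rescaled spread. No called named gene changed sign under any alternative run, and of those not called Tead3 ran from -0.52 to 0.01 and Tmub2 from -0.21 to 0.01 without 1 library. The count of 454 called genes was 189 with no filter, 860 in a fit of the 4 libraries alone, and 189 to 490 without 1 of the 4 libraries. Alternatives chosen after seeing the data gave 2108 with deviations before rescaling, 1021 against all 4 GFP libraries and 1089 with a crossed replicate block in 4 libraries, tried because the number differences of the groups correlated at -0.52. With the replicate block it was 452 over 12 libraries and 674 over the 6 Mst libraries. The labels do not say that a library number marks a shared mouse or batch. Since the first and second library means of the Mst experiment are equal, the number differences of its 3 groups sum to about 0 in each gene, so their correlations (-0.64, -0.52 and -0.31) do not tell whether numbers pair libraries, and the 6 residual degrees of freedom make no allowance for it. Scaling to equal medians, equal totals or quantiles gave 422, 409 and 388, with 72.7%, 72.4% and 72.2% of calls higher. Of the 21 genes that differed from the YAP experiment, the count was 3 with no filter, 35 with the replicate block over 12 libraries, 3 with no trend in the prior, 1 to 39 without 1 library, 618 before rescaling and 598 against all 4 GFP libraries. The 5 genes between Sox9 genotypes became 2 with no filter, 2 with 6 Mst libraries, 28 with the replicate block over those, 3 to 20 without 1 library, and 181 before rescaling. The 598 came from a direct comparison of DKO Sox9-het with YAP S127A libraries, since a shared GFP control drops out of the difference. Beyond this change of comparison and more or fewer genes tested and libraries fitted, the cause of these shifts was not tested. Among the 106 named genes called, 49 were called without each library in turn.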

Other observations

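Oat and Lhpp, 2 of the 3 largest falls, are neighbours on chromosome 7, with 34239 bases between them (build GRCm38) and no kept gene in between. They were the closest pair among the 30 largest changes. Lhpp (chr7:132610638-132706420) had 0.39 and -0.06 log2 CPM in DKO Sox9-het libraries, against 4.83 and 5.50 in floxed GFP libraries, a fall of 5.0 ± 0.50 (limma adjusted p = 1.97e-05). Within 500000 bases on either side 4 other genes were kept. Zranb1 and Fam53b changed by -0.40 and -0.19 and Fgfr2, whose annotated span covers both genes, by 0.86, none called, while Chst15, a chondroitin sulfotransferase gene, had 3.44 and 2.96 in DKO Sox9-het libraries, against 0.52 and 1.58 in floxed GFP libraries, a rise of 2.15 (adjusted p = 0.0358) that was not called without either DKO Sox9-het library or without floxed GFP library 1 (adjusted p up to 0.263).

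Single genes of other lists were called, and a count near the 4.25% of all kept genes called is no result about its list. Plk2, a stress-induced polo-like kinase, had 7.11 and 7.57 in DKO Sox9-het libraries, against 4.11 and 4.70 in floxed GFP libraries, and rose by 2.93 (limma adjusted p = 0.000449), as 1 of 2 called among 20 p53 and apoptosis genes. Ifit2, an interferon-induced RNA-binding protein, had 3.94 and 4.49 in DKO Sox9-het libraries, against 1.79 and 1.32 in floxed GFP libraries, and rose by 2.66 (adjusted p = 0.000171), the 1 called higher of 28 interferon and MHC genes, of which Igtp and Irf7 fell by 1.51 and 1.41. Those falls were not called without DKO Sox9-het library 2 or floxed GFP library 2 (adjusted p up to 0.193 and 0.136). Vnn1, a pantetheinase and PPARA target, had 7.10 and 7.10 in DKO Sox9-het libraries, against 5.02 and 5.26 in floxed GFP libraries, and rose by 1.96 (adjusted p = 0.00238), as the 1 called of 27 fatty acid oxidation genes, whose median was -0.13. Rcan2, a calcineurin regulator, had 2.21 and 1.99 in DKO Sox9-het libraries, against 4.59 and 4.46 in floxed GFP libraries, a fall of 2.43 (adjusted p = 0.00465).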
